A study of Mus musculus with 19 samples.

Results

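Blood vessel genes of the mouse retina were described across 3 comparisons of Pou3f1, a POU family transcription factor gene. They are 10 genes of 35734 listed in the series, chosen by symbol: 9 of endothelial cells, which line vessels (Kdr, Flt1, Tek, Tie1, Cdh5, Pecam1, Cldn5, Esam and Emcn), and 1 of pericytes, which wrap capillaries (Pdgfrb). All 10 were listed in each of the 3 tables. An adjusted p was given for 9 of them at 48 h, where Emcn fell under the authors' abundance limit, and for 10 in the other tables.

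The study's 19 libraries fall into 6 groups. Eyes of wild-type CD1 mice were electroporated in vivo on postnatal day 1 with plasmid DNA, carrying Gfp alone or Pou3f1, and GFP-positive cells were sorted and pooled to about 150000 cells per library. There were 3 Gfp and 3 Pou3f1 libraries at 48 h, and 4 Gfp and 5 Pou3f1 libraries at 14 days (14 days after electroporation in the sample labels, postnatal day 14 in the protocol). At E17.5, C57B6J embryos gave 2 heterozygous and 2 homozygous Pou3f1 mutant libraries of whole retina, so that no E17.5 group is wild type. The sources used here do not describe the promoter of the plasmids or the mutant allele.

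Endothelial cells grow in response to VEGF, which retinal astrocytes and neurons release where oxygen is short, and the angiopoietin Angpt1 then steadies the new vessels. Vessels spread over the inner retina of the mouse from birth and sink into its deeper layers over the following weeks. They arise from mesoderm, not from the retinal progenitors that electroporation reaches, so their genes are outside the lineage that the sort was meant to collect. The transcript of Kdr is also known from retinal progenitors and neurons, and other members may have sources outside vessels too.

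Promoters are shown for the 4 members called in a comparison that have an entry in the RefSeq promoter table so that their letters stand beside their values. Each run is the 250 bases before the start, 5′ to 3′ on the gene's strand in GRCm38, the build named mm10 in the submitters' processing notes. The windows are chr5:75978456-75978705 (minus strand) for Kdr, chr5:147726012-147726261 (minus) for Flt1, chr3:137340828-137341077 (plus) for Emcn and chr16:18776597-18776846 (plus) for Cldn5. Capitals mark GGAA or its reverse complement TTCC, the core read by ETS family factors, many of which act in endothelial cells.
Kdr: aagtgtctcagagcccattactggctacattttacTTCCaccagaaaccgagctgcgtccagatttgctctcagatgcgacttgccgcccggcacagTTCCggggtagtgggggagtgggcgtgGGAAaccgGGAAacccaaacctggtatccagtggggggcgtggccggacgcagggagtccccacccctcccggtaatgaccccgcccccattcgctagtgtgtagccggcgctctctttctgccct
Flt1: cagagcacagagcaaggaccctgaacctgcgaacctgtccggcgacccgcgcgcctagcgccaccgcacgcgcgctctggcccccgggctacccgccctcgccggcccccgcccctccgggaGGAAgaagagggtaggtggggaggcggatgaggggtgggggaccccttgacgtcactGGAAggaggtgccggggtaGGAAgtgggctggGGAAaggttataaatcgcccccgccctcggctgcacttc
Emcn: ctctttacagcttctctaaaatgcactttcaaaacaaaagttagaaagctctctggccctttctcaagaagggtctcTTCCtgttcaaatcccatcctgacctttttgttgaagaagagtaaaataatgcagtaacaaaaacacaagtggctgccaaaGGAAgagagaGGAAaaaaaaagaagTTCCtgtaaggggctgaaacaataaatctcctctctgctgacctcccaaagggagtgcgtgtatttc
Cldn5: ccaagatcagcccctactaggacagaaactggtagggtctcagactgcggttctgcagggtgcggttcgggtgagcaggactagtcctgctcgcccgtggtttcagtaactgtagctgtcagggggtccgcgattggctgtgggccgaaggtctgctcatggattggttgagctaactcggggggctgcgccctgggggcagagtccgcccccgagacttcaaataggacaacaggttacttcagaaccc

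The Kdr, Flt1 and Emcn windows each hold 4 cores, and the Cldn5 window holds 0. Of all 32851 promoters of this length, 93.4% hold at least 1 core and the median is 3, so the core does not set the members apart. It was chosen after the promoters had been seen. The POU octamer ATGCAAAT, searched on both strands, was in none of the 6 members with an entry (Tek and Tie1 being the others) and in 1.60% of all promoters. The longer ETS site CCGGAAGT, which overlaps the core, was also in none of the 6 and in 2.88% of all promoters. G and C make up 70.4% of the Flt1 window, 61.6% of the Kdr window, 59.6% of the Cldn5 window and 40.8% of the Emcn window, against a median of 52.4% over all promoters.

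The deposited tables list no value per library. Each gene has the authors' log2 fold change on the log2 scale of normalized counts, its p and its adjusted p. The overexpression tables also give its standard error (SE) and a mean normalized count over all libraries of that comparison. Fold changes are shrunken toward 0 in the overexpression tables. Those at E17.5 appear to be shrunken too, so the size of a change there may be understated. The words rose and fell are kept for an adjusted p under 0.05 from the authors. Mean counts summed to 16020842 at 48 h and 38507471 at 14 days, and the depth of single libraries is unknown. Nothing in the labels says that libraries came from separate animals, so the p-values may measure technical spread only. Pou3f1 itself stood at log2 fold changes of 0.91 ± 0.26 at 48 h and 5.57 ± 0.27 at 14 days in Pou3f1 over Gfp cells, and -0.69 in knockout over heterozygous retinas (adjusted p = 0.0233, 3.40e-88 and 1.98e-08, authors' deposited table). The headers do not name a direction, so each table was read in the direction that puts Pou3f1 higher in Pou3f1 cells and lower in knockout retinas, and these signs are no check of the labels. The name of the E17.5 table puts the heterozygote before the knockout and gives an embryonic day that differs from E17.5 in the labels, and the labels were followed. If that table ran the other way, every E17.5 sign below would turn. As read, Pou3f1 transcript in the knockout libraries was 0.62-fold that of the heterozygous ones. This value shows a lower level but may understate the change, so whether the transcript was lost cannot be told.

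Kdr, which encodes the main signalling receptor for VEGF, was by far the most abundant member in the sorted cells. Its mean level was 1972 normalized counts per kb of its longest coding transcript at 48 h and 1389.7 at 14 days. Cdh5, which encodes the cadherin of endothelial junctions and is a defining marker of these cells, stood at 3.72 counts per kb at 48 h and 98.1 at 14 days. Per kb, Kdr was thus 529.6 times as abundant as Cdh5 at 48 h and 14.2 times at 14 days. The order of levels per kb at 48 h was Kdr, Cldn5 (111), Pecam1 (42.2), Pdgfrb (39.0), Esam (8.57), Flt1 (7.86), Tie1 (4.28), Cdh5, Tek (2.23) and Emcn (1.31). At 14 days it was Kdr, Cldn5 (284), Flt1 (195), Esam (181), Pecam1 (141), Pdgfrb (138), Cdh5, Tie1 (59.9), Tek (29.4) and Emcn (20.6). With no values per library, the spread of these levels is unknown, and it cannot be said which neighbours in the order differ.

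**Figure D1:**
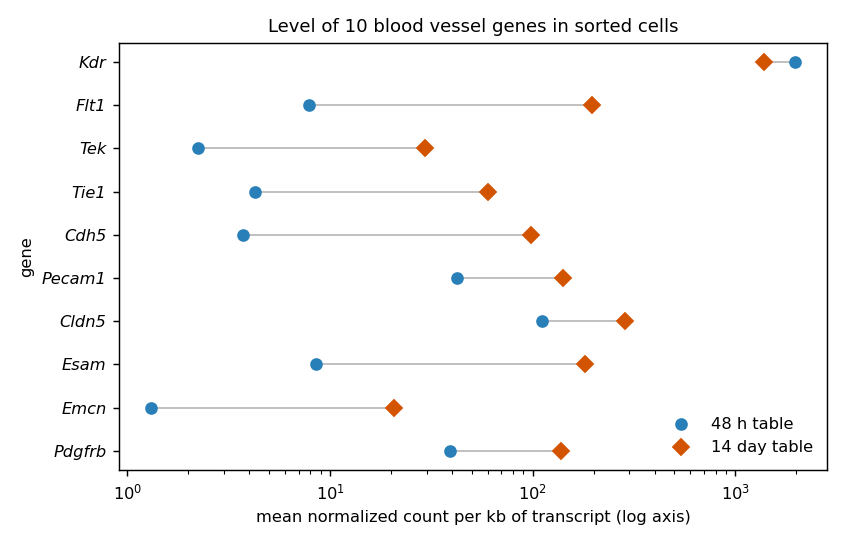
Mean normalized count per kb of the longest coding transcript (horizontal log axis) for the 10 vessel genes in the 48 h (circles) and 14 day (diamonds) tables, each point a mean over all libraries of that comparison with no error available. Kdr lies at 1972 and 1389.7, while the other 9 genes lie between 1.31 and 111 at 48 h and between 20.6 and 284 at 14 days.

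The 2 overexpression tables were normalized separately, so a level can be set across them only as a share of each table's total. Kdr made up 729 of every 1000000 counts at 48 h and 214 at 14 days, a ratio of 0.293. For Cdh5 this share was 0.929 per 1000000 at 48 h and 10.2 at 14 days, 11.0 times as much. Flt1, a receptor that binds VEGF and largely withholds it from Kdr, had 10.3 times the share, and Esam, an adhesion molecule of endothelial tight junctions, 8.77 times. Tek and Tie1, the receptor for angiopoietins and its partner, had 5.49 and 5.82 times the share, and Emcn, a sialomucin of venous and capillary endothelium, 6.53 times. Cldn5, the chief claudin of the barrier between blood and retina, had 1.06 times, Pecam1, an adhesion molecule that leukocytes and platelets carry too, 1.39 times, and Pdgfrb, the receptor that draws pericytes to vessels, 1.47 times. Kdr was therefore the member whose share was lower in the later table, whereas those of the other 9 were higher to unequal degrees.

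At 48 h, Kdr was the member that fell in Pou3f1 cells. Its mean count was 11683 and its log2 fold change -0.63 ± 0.15, or 0.646-fold (adjusted p = 0.00298, authors' deposited table). Kdr lies on chromosome 5 from 75932827 to 75978458. Of the 9 members with an adjusted p, 1 fell, 0 rose and 8 did not pass the authors' DESeq2 test, while 1.56% of all 14714 genes tested fell and 1.48% rose. At an unadjusted p under 0.05, 3 of the 9 were lower and 1 was higher. Their median log2 fold change was -0.35, with a range from -0.63 to 0.50, beside a median of -0.01 over all genes with an adjusted p. A negative median at 48 h was not particular to the members. It was -0.32 for markers of astrocytes, -0.27 for Müller glia and -0.19 for ganglion cells, against -0.02 for retinal progenitors and 0.17 for pigment epithelium.

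Among the receptors, Flt1 had a log2 fold change of -0.35 ± 0.28 at 48 h (adjusted p = 0.631, authors' deposited table). Tek stood at -0.51 ± 0.24 (adjusted p = 0.285, authors' deposited table). Tie1 stood at 0.01 ± 0.25 (adjusted p = 0.991, authors' deposited table), a sign that turned negative when fold changes were centred within bins of mean count. These 3 genes had mean counts of 54.2, 10.4 and 18.1, and with their SE a log2 change had to reach 0.89, 0.77 and 0.78 to be called. The 48 h table therefore could not resolve changes of the size of that of Kdr in them.

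The junction genes did not pass at 48 h either. Cdh5 stood at -0.44 ± 0.21, Esam at -0.38 ± 0.24 and Cldn5 at -0.18 ± 0.25 (adjusted p = 0.315, 0.485 and 0.817, authors' deposited table). Pecam1 had a positive value, 0.50 ± 0.25 at a mean count of 145 (adjusted p = 0.308, authors' deposited table). Emcn had a mean count of 3.40 and a log2 fold change of -0.05 ± 0.13, a value too thinly covered to read. The pericyte gene Pdgfrb stood at -0.30 ± 0.21 with a mean count of 211 (adjusted p = 0.554, authors' deposited table).

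At 14 days, all 10 members had a negative log2 fold change in Pou3f1 over Gfp cells, and Flt1, Esam and Emcn fell. Flt1 had a mean count of 1347 and a log2 fold change of -0.86 ± 0.21, or 0.551-fold (adjusted p = 0.000999, authors' deposited table). Esam followed at -0.73 ± 0.23 with a mean count of 337 (adjusted p = 0.0119, authors' deposited table). Emcn stood at -0.75 ± 0.29 with a mean count of 53.4 (adjusted p = 0.0470, authors' deposited table), and its call was lost when p-values were adjusted over every gene (adjusted p = 0.0624) or fold changes were centred on the median of all genes (adjusted p = 0.0516) or within bins of mean count (adjusted p = 0.0742). Flt1 lies on chromosome 5 (147561604 to 147726011), Esam on chromosome 9 (37528078 to 37538319) and Emcn on chromosome 3 (137341067 to 137432185).

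Of the 10 members 3 fell at 14 days, 0 rose and 7 did not pass the authors' DESeq2 test, while 9.21% of all 17789 genes tested fell and 11.5% rose. At an unadjusted p under 0.05, 7 were lower and 0 higher. Their median log2 fold change was -0.59, beside -0.01 over all genes with an adjusted p, 52.2% of which were below 0. Most members are known from the same cells, so their fold changes are not independent of each other. In these bulk libraries fewer vessel cells, less RNA per vessel cell and a change in other cells that hold these transcripts cannot be told apart.

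The 7 members that did not pass at 14 days were close together except for Kdr. Pecam1 had a log2 fold change of -0.67 ± 0.29, Cdh5 of -0.62 ± 0.28, Cldn5 of -0.57 ± 0.28 and Tie1 of -0.56 ± 0.29 (adjusted p between 0.0840 and 0.153, authors' deposited table). Pdgfrb stood at -0.53 ± 0.29 and Tek at -0.48 ± 0.29 (adjusted p = 0.193 and 0.251, authors' deposited table). Kdr, at a mean count of 8233 and with the smallest SE of the members, stood at -0.16 ± 0.13 (adjusted p = 0.416, authors' deposited table). A log2 change of 0.35 in Kdr would have been called, against 0.72 in Cdh5 or Cldn5. Several of these SEs lie near the largest in the table, 0.297, and the shrunken fold changes of such genes may understate the change.

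**Figure D2:**
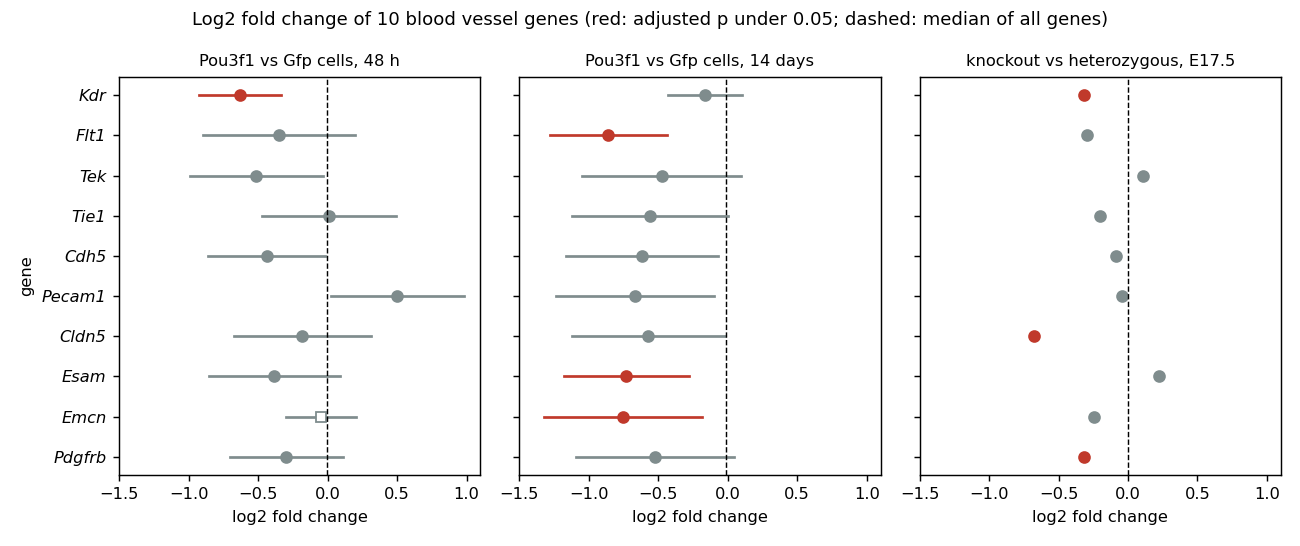
Log2 fold change (horizontal axis) of each of the 10 genes in the 3 comparisons, with 95% intervals from the authors' SE where one was deposited (none at E17.5). Red points passed an adjusted p under 0.05, the open square is Emcn at 48 h without an adjusted p, and the dashed line is the median of all genes. At 14 days all 10 points lie below 0, from -0.86 to -0.16.

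The response of Pecam1 differed between the 2 times. Its log2 fold change at 14 days less that at 48 h was -1.17 ± 0.38 (95% interval -1.92 to -0.43, two-sided z test adjusted over 14580 genes, adjusted p = 0.0387). The 2 times have separate Gfp controls. Among the 9 members tested 1 differed, a count near the 6.14% of all genes that did. The test takes the shrunken fold changes and their SEs as given, and the effect of shrinkage on it was not tested. For Kdr the difference went the other way, 0.46 ± 0.20 (0.07 to 0.86), and did not pass (z test, adjusted p = 0.163). The differences of Tie1 (-0.57 ± 0.38) and Flt1 (-0.51 ± 0.35) did not pass (z test, adjusted p = 0.427 and 0.456). For Esam, Cldn5, Pdgfrb, Cdh5 and Tek the differences lay between -0.39 and 0.04, and their 95% intervals include 0. Pecam1 is on chromosome 11 (106654217 to 106750628).

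**Figure D3:**
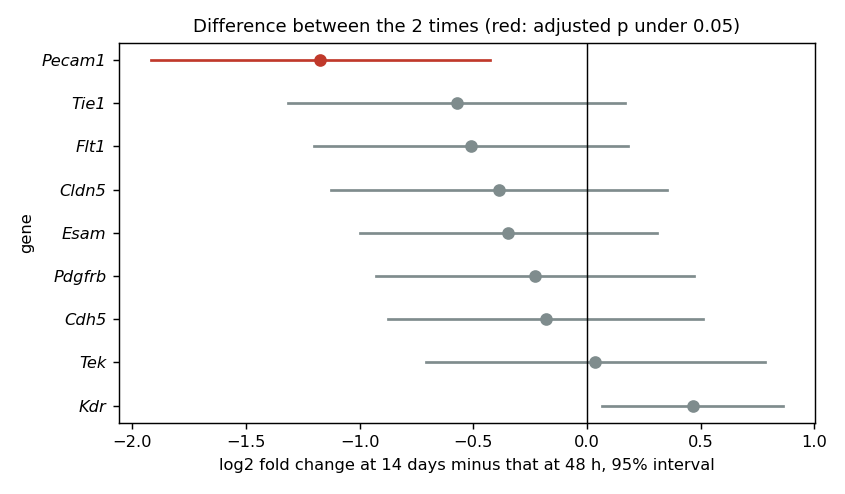
Log2 fold change at 14 days minus that at 48 h (horizontal axis, log2 units) for the 9 vessel genes tested at both times, with 95% intervals. The interval of Pecam1 (red, adjusted p under 0.05) runs from -1.92 to -0.43, and Kdr is the gene at the other end at 0.46.

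At E17.5, in the direction read here, Cldn5, Kdr and Pdgfrb were lower in knockout than in heterozygous retinas. This table lists no SE and no abundance, so its fold changes are given here without an error, and they may understate the change. Each group has 2 libraries. E17.5 also lies before birth, from when vessels spread over the inner retina, so which cells supplied these transcripts is unknown. Cldn5 fell by 0.68 on the log2 scale, or to 0.625-fold (adjusted p = 4.84e-05, authors' deposited table). Kdr fell by 0.31, or to 0.804-fold (adjusted p = 0.000220, authors' deposited table). Pdgfrb fell by 0.32, or to 0.802-fold (adjusted p = 0.0362, authors' deposited table), a call that was lost when p-values were adjusted over every gene (adjusted p = 0.0591). Cldn5 is a gene with a single annotated transcript on chromosome 16 (18776847 to 18778262).

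The endothelial marker Cdh5 did not pass at E17.5, and neither did Pecam1, which leukocytes and platelets carry too. Cdh5 had a log2 fold change of -0.09 and Pecam1 of -0.04 (adjusted p = 0.780 and 0.937, authors' deposited table). Flt1 stood at -0.30, Emcn at -0.24 and Tie1 at -0.20 (adjusted p between 0.333 and 0.563, authors' deposited table). Tek (0.11) and Esam (0.22) were the members with positive values (adjusted p = 0.803 and 0.495, authors' deposited table). In all, 3 of 10 members fell, 0 rose and 7 did not pass the authors' DESeq2 test, and 5.34% of all 14821 genes tested fell and 4.7% rose. At an unadjusted p under 0.05, 3 were lower and 0 higher. The median of the members was -0.22, beside 0.00 over all genes.

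Kdr was thus called lower both in Pou3f1 cells at 48 h and, in the direction read here, in the libraries labelled knockout at E17.5, in different tissue samples (sorted cells and whole retinas). The 5 genes nearest to Kdr over its 3 log2 fold changes were Mmp28, Sh3bgrl2, Neurod1, Llgl2 and Slc6a11, at Euclidean distances from 0.040 to 0.061 among 14002 genes with an adjusted p in all tables. None of the 5 is on a vessel list, but those lists hold a small part of the 14002 genes. Their absence among 5 genes therefore says little about Kdr. Of the 5, Neurod1 alone passed at 48 h. Neurod1, a transcription factor gene of photoreceptor precursors, had a log2 fold change of -0.59 at 48 h and -0.15 at 14 days, and of -0.28 at E17.5. Likeness over 3 comparisons is a description only.

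Other genes of endothelial cells were described beside the members. The list holds 25 such genes, among them transporters, caveolar proteins and surface markers. Counts by unadjusted p, given in brackets here and further on, use the same limit of 0.05. At 48 h 1 of 14 with an adjusted p fell and 0 rose (4 lower and 0 higher by unadjusted p). Over all genes tested 1.56% fell and 1.48% rose, and the list had a median log2 fold change of -0.29. The list gene that fell was Podxl, a sialomucin that podocytes and other cells share, at -0.84 ± 0.18 (adjusted p = 0.000290, authors' deposited table). At 14 days 11 of 24 fell and 0 rose (17 and 0 by unadjusted p), beside 9.21% and 11.5% of all genes tested. The median of the list was -0.67. Mmrn2, at -0.55 with a mean count of 109, is not among the 24, as no p was listed for it. Cav1, which forms caveolae, led at -0.98 ± 0.12, followed by Sox17, an arterial transcription factor gene, at -1.18 ± 0.29 (adjusted p = 2.21e-13 and 0.000891, authors' deposited table). Mfsd2a, a lipid transporter of the barrier, stood at -1.05 ± 0.28 and Nos3, the endothelial nitric oxide synthase, at -0.74 ± 0.21 (adjusted p = 0.00214 and 0.00556, authors' deposited table). At E17.5 1 of 20 fell and 0 rose (1 and 0 by unadjusted p), with a median of -0.10. Of all genes tested 5.34% fell, a share near that of the list, and 4.7% rose. The list gene that fell was the tight junction scaffold Tjp1, which epithelia and neurons also make, at -0.31 (adjusted p = 0.00198, authors' deposited table).

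Some endothelial transcription factor genes fell at 14 days as well. Of 15 with an adjusted p 3 fell and 0 rose (6 and 0 by unadjusted p), beside 9.21% and 11.5% of all genes tested. Their median log2 fold change was -0.49. Epas1, a hypoxia-inducible factor also found outside vessels, had -1.22 ± 0.21 at a mean count of 7203, and Sox18 had -0.81 ± 0.30 at 85.8 (adjusted p = 2.14e-07 and 0.0328, authors' deposited table). Sox17, described above, is the third. At 48 h 1 of 7 fell, beside 1.56% of all genes tested. It was Hey1, a Notch target, at -0.62 ± 0.19 (adjusted p = 0.0339, authors' deposited table). At E17.5 0 of 13 passed the authors' DESeq2 test, and 0 had an unadjusted p under 0.05.

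Among other receptors of vessel growth, Adgra2 fell in all 3 comparisons, with E17.5 in the direction read here. It encodes an adhesion receptor that lets brain vessels respond to Wnt7 ligands, although other cell types express it too. It stood at -0.76 ± 0.17 on the log2 scale at 48 h and at -0.70 ± 0.21 at 14 days, and it was -0.51 at E17.5 (adjusted p = 0.000669, 0.00690 and 0.00126, authors' deposited table). Of 14002 genes with an adjusted p in all tables, 10 fell in all 3, Adgra2 among them, a count that also rests on that direction. It was the 1 such receptor gene of 17 that fell at 48 h and the 1 of 18 that fell at E17.5, and 0 rose at either. The shares of all genes tested that fell were 1.56% and 5.34%, the latter near the E17.5 count. At 14 days 4 of 18 such receptor genes fell and 2 rose, with a median of -0.52. Over all genes tested 9.21% fell and 11.5% rose at 14 days, so the rises are near the share of all genes. S1pr1, a receptor that strengthens endothelial junctions, had -0.76 ± 0.15 and Fzd4, the Norrin receptor needed for retinal vessels, -0.53 ± 0.13 (adjusted p = 8.74e-06 and 0.000882, authors' deposited table). Nrp1, a VEGF and semaphorin co-receptor that neurons also carry, rose by 0.82 ± 0.24 (adjusted p = 0.00578, authors' deposited table).

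Ligands of vessel growth had a positive median at 14 days. Of 18 with an adjusted p 3 rose and 1 fell, counts near the 11.5% and 9.21% over all genes tested, and the median was 0.22. Angpt1, the ligand that activates Tek, rose by 1.19 ± 0.28 at a mean count of 35.3 (adjusted p = 0.000355, authors' deposited table). Ndp, which encodes Norrin, rose by 0.68 ± 0.20, and Efnb2, an ephrin of arteries and of neurons, by 0.60 ± 0.19 (adjusted p = 0.00586 and 0.0127, authors' deposited table). Apln, made by endothelial tip cells, fell, at -1.01 ± 0.28 (adjusted p = 0.00369, authors' deposited table). Of the 18 ligands 14 were above 0 and 4 below, among the latter Pdgfb (-0.75) and Dll4 (-0.56), which did not pass. The positive values include those of Wnt7a, Wnt7b and Gdf2, at mean counts of only 4.06, 4.62 and 2.71. Angpt2, at -0.79 with a mean count of 68.5, is not among the 18, as no p was listed for it at 14 days. At 48 h 0 of 16 passed the authors' DESeq2 test (2 lower and 2 higher by unadjusted p). At E17.5 2 of 17 fell and 0 rose (4 and 0 by unadjusted p), beside 5.34% and 4.7% of all genes tested. Both that fell are angiopoietin genes: Angpt2 at -0.68 and Angpt1 at -0.53 (adjusted p = 0.000210 and 0.0156, authors' deposited table). In Pou3f1 cells at 48 h Angpt1 stood at -0.43 ± 0.23 with a mean count of 369.99 (unadjusted p = 0.058, authors' deposited table).

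Mural cell genes, which share their cells with Pdgfrb, gave 1 call in each comparison, shares near those over all genes tested at 14 days and E17.5 (9.21% and 5.34% fell). At 14 days 1 of 14 fell and 0 rose (2 and 0 by unadjusted p), although all 14 were below 0, with a median of -0.35. The pericyte genes Rgs5, Cspg4 and Abcc9 are not among the 14, as no p was listed for them. They stood at -0.44, -0.45 and -0.40, with mean counts of 2981, 263 and 552. No reason is listed, and outlying counts could not be checked without values per library. The gene that fell at 14 days was Vtn, at -0.90 ± 0.26 with a mean count of 19643 (adjusted p = 0.00684, authors' deposited table). Vtn also fell at E17.5, at -0.32 (adjusted p = 0.0372, authors' deposited table), where the median of the list was -0.04. At 48 h 1 of 8 fell, beside 1.56% of all genes tested. It was the adhesion gene Mcam, at -0.60 ± 0.17 (adjusted p = 0.0144, authors' deposited table). Vtn and Mcam are not limited to mural cells.

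Hypoxia genes, many of them driven by the factors that also drive VEGF, had a median of -0.32 at 48 h. There 2 of 14 fell and 0 rose, beside 1.56% and 1.48% of all genes tested. Those 2 were Hif1a at -0.52 ± 0.15 and the glycolysis gene Pgk1 at -0.47 ± 0.15 (adjusted p = 0.0224 and 0.0458, authors' deposited table). At 14 days 1 of 14 fell and 1 rose, near the 9.21% and 11.5% of all genes tested, with a median of -0.10. At E17.5 4 of 13 fell and 0 rose (6 and 0 by unadjusted p), beside 5.34% and 4.7% of all genes tested. The median was -0.13 with all 13 below 0. Bnip3, a mitophagy gene, had -0.55, Ndrg1 -0.36, the kinase gene Pdk1 -0.45 and the oxygen sensor gene Egln3 -0.40 (adjusted p between 0.000101 and 0.0118, authors' deposited table).

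**Figure D4:**
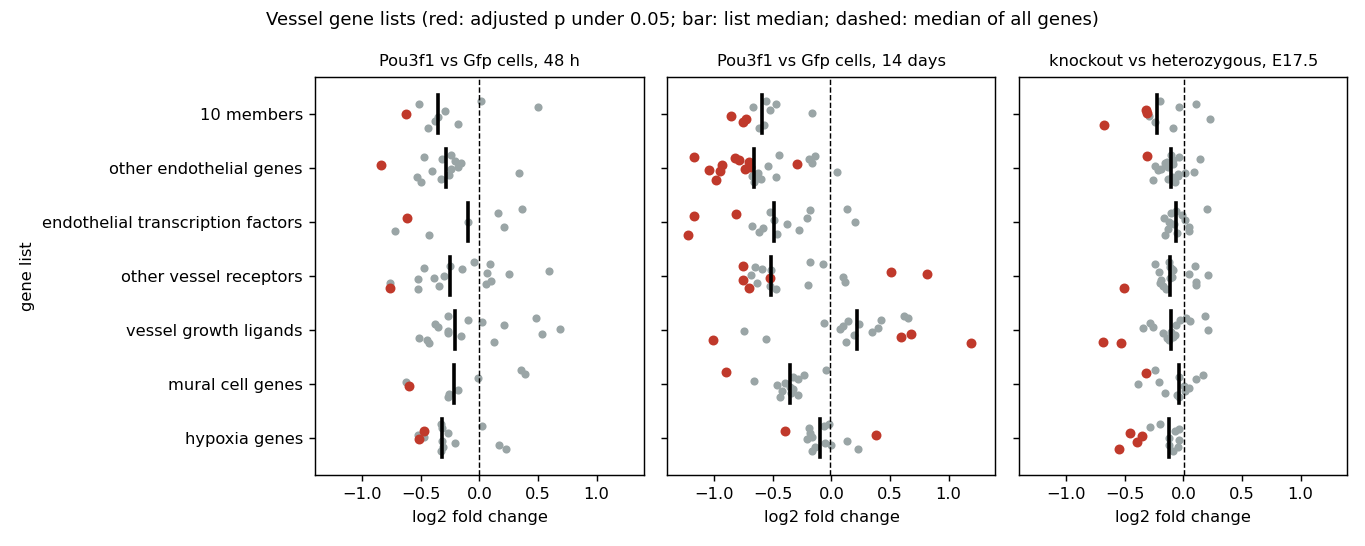
Log2 fold change (horizontal axis) of each gene with an adjusted p in the 10 members and 6 lists of vessel and hypoxia genes, in the 3 comparisons. Red points passed an adjusted p under 0.05, black bars are list medians and the dashed line is the median of all genes. At 14 days the medians of the members (-0.59) and of other endothelial genes (-0.67) lie below 0, and that of the ligands (0.22) above it.

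Markers of other cells outside the neural lineage also differed at 14 days, where 9.21% of all genes tested fell and 11.5% rose. All 12 microglia genes rose, with a median log2 fold change of 1.43 and values from 0.99 to 1.87, at a summed mean count of 2673. Of 5 fibroblast genes 2 rose, with a median of 0.60, and among 6 genes of red blood cells 1 rose and 1 fell, with a median of -0.49. Rod genes (5 of 7 fell, median -0.57) and Müller glia genes (3 of 6 fell, median -0.32) also had negative medians, while retinal progenitor genes (3 of 6 rose and 0 fell, median 0.50) and ganglion cell genes (2 of 7 rose and 0 fell, median -0.12) had rises. At 48 h 0 of 8 microglia genes passed the authors' DESeq2 test (0 by unadjusted p), with a median of -0.28 and a summed mean count of 174. At E17.5 0 of 12 passed (2 lower and 0 higher by unadjusted p), with a median of -0.23. The tables give no level per group for these markers, and their part in the vessel results was not tested.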

How the data were processed

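RNA-seq of 19 libraries was deposited as 3 tables, each with 1 comparison made by the authors and no values per library. Salmon, DESeq2 and MACS2 with mm10 are named, per the submitters' processing notes. The sources used here give no versions, annotation or design formula. The deposited log2 fold change and SE are the authors' own. The signal is the authors' mean normalized count. The deposited Wald score equals the log2 fold change over its SE (largest gap 4.45e-07). The p-value and its Benjamini-Hochberg adjusted p were deposited by the authors.

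The difference of the 14 day and 48 h fold changes was tested for each gene (two-sided z test, SE of both combined), adjusted by Benjamini-Hochberg over 14580 genes. Intervals are 95% (fold change and SE, normal). Lengths and places are from GENCODE mouse release 21. Other settings tried were adjustment over every gene, an adjusted p under 0.01, at least a 2-fold change, mean count limits of 10 and 100, and centring on all genes or in 10 mean-count bins. The members and gene lists were chosen with earlier results of these data known. Named genes are all 10 members, up to 4 called genes per list by adjusted p, Pou3f1 and the 5 genes nearest to Kdr. Software was matplotlib 3.10.9, scipy 1.17.1, numpy 2.4.6 and pandas 2.3.3 in Python 3.11.15.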

Additional observations from a re-analysis of the deposited data

Results flagged for a closer look

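Pecam1 was flagged because its response to added Pou3f1 differed between the 2 times by a test of the difference itself: the log2 fold change at 14 days less that at 48 h was -1.17 (two-sided z test, adjusted p = 0.0387, and between 0.0346 and 0.0474 when centred on the median of all genes or adjusted over every gene with a p-value in both tables). Its own adjusted p passed in neither table, and the count of members that differed was near the share over all genes.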

How the results depend on the processing

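No paired analysis was possible because the tables hold no values per library, and for the same reason no library could be left out. With an adjusted p under 0.01, members called numbered 1 at 14 days (against 3), 2 at E17.5 (against 3) and 0 for the difference between the times (against 1). With a limit of at least 2-fold, 0 members were called in any of the 3 comparisons. None of their listed fold changes reached that size, although shrinkage may understate them. With adjustment over every gene, 1 member was called at 48 h, 2 at 14 days, 2 at E17.5 and 1 for the difference. Mean count limits and centring gave 1 at 48 h and 2 or 3 at 14 days, and centring on all genes gave 1 for the difference. Calls at E17.5 were not recomputed under these, since that table lists no mean count or SE. Tie1 at 48 h turned from 0.012 to -0.044 when centred within bins of mean count, and passed in neither case. Medians of the members lay between -0.41 and -0.32 at 48 h, -0.60 and -0.58 at 14 days and -0.23 and -0.22 at E17.5. At 48 h 5 of the 10 genes had a mean count under 20.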
